A study of Mus musculus with 22 samples.

Results

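Chromatin regions were collected around 8 genes that define cartilage cells, namely the transcription factor genes Sox9, Sox5 and Sox6 and the cartilage matrix genes Acan, Col2a1, Col10a1, Comp and Matn3, in a bone-forming cell line. A region was assigned to a gene when its centre lay within 100 kb of an annotated start of that gene on mouse genome build mm9. This took in 643 of the 360258 regions on chromosomes 1 to 19 and X, around 8 of 22208 annotated protein-coding genes. The study profiled MC3T3-E1 cells, 1 mouse pre-osteoblastic line at passages 5 to 12, by chromatin immunoprecipitation sequencing (ChIP-seq). The first state was differentiated cells, kept for 15 days in medium with glycerol-2-phosphate and ascorbic acid, and the second was undifferentiated cells in plain medium. Both were exposed for 3 h to 100 nM calcitriol, the hormonal form of vitamin D, or to ethanol vehicle. There was 1 deposited list for each antibody, state and treatment, 22 in all. VDR and RXR had calcitriol and vehicle lists, whereas C/EBPβ, RUNX2, H4K5ac, H3K9ac, H3K4me1, H3K4me3 and H3K36me3 are described here from calcitriol lists alone, so no comparison with vehicle was made for them. The labels of the acetylated H4K5 samples differ from the protocol text, which names H3K5 in that place; the sample labels were followed. Mineralized matrix was removed from the differentiated cultures by homogenization and a spin through sucrose, so state and preparation cannot be told apart.

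Sox9 is the master transcription factor of cartilage, and Sox5 and Sox6 act with it on cartilage matrix genes. Acan encodes aggrecan, the large proteoglycan of cartilage, Col2a1 the main cartilage collagen, Col10a1 the collagen of hypertrophic chondrocytes, and Comp and Matn3 encode the matrix proteins cartilage oligomeric matrix protein and matrilin-3. Osteoblasts and chondrocytes arise from shared skeletal progenitors, and SOX9 and RUNX2 are lineage factors, SOX9 of cartilage and RUNX2 of bone. VDR binds DNA as a dimer with RXR after calcitriol has bound it, C/EBPβ is a basic leucine zipper factor of osteoblasts, H4K5ac, H3K9ac and H3K4me1 mark active or primed elements, H3K4me3 marks promoters and H3K36me3 lies over transcribed gene bodies.

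The sequences below belong to the VDR sites that were listed in both states or that held a match to DR3, a repeat of the receptor half-site after a gap of 3 bp to which VDR and RXR dimers bind. Each is the 201 bp deposited site on the plus strand of mm9, and capitals mark matches on either strand to DR3 with at most 1 mismatch, to the RUNX motif TGTGGT or to the C/EBP motif TTGCNNAA.
Sox9 upstream, chr11:112598409-112598609: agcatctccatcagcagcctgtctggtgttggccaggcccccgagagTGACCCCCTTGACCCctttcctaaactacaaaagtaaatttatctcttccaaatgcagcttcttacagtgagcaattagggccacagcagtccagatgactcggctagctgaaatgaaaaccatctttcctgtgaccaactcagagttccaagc
Sox9 downstream, chr11:112701056-112701256: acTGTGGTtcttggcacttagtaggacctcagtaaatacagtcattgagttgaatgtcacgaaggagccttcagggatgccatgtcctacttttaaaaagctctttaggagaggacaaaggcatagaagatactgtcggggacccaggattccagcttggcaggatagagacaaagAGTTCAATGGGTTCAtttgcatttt
Sox5 intron, chr6:143995285-143995485: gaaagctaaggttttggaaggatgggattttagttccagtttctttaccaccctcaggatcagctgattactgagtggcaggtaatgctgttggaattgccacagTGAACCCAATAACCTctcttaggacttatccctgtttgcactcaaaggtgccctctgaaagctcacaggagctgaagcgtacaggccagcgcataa

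Both Sox9 sites matched DR3 with no mismatch, and the Sox5 site did so with 1 mismatch. The downstream Sox9 site also held TGTGGT near its edge, although no RUNX2 site was listed there. Of the 14 VDR sites listed around the genes in undifferentiated cells with calcitriol, these 3 held DR3 with at most 1 mismatch (21.4%, exact Clopper-Pearson 95% interval 4.66% to 50.8%). The share in the whole list was 14.8% of 7000 sites, and in windows of the same length 2 kb to either side it was 1.18%. In differentiated cells the only VDR site held the motif, against 24.0% of the 871 sites of that list and 1.03% of their flanks. Intervals here cover the counting of regions only, because no list of a single replicate was analysed.

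The next sequences show what VDR occupied without added hormone near Col2a1, and, for Matn3, Comp and Col10a1, the site outside exons where the most factors were listed. An exonic Matn3 locus had as many, 4, and each of the exonic Col10a1 loci had 1, like the one shown.
Col2a1 vehicle site 1, chr15:97744344-97744544: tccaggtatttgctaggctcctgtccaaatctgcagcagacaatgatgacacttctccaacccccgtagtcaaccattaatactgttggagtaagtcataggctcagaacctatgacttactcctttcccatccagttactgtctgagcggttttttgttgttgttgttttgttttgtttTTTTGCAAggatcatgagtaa
Col2a1 vehicle site 2, chr15:97745310-97745510: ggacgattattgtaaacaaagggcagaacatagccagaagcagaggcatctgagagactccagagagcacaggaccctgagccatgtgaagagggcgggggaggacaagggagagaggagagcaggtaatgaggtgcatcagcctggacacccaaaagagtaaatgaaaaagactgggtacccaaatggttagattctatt
Matn3 upstream, chr12:8920704-8920904: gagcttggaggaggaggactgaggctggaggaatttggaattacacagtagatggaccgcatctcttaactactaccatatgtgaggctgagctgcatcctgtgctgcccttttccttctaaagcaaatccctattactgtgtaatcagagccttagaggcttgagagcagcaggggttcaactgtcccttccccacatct
Comp upstream, chr8:72895885-72896085: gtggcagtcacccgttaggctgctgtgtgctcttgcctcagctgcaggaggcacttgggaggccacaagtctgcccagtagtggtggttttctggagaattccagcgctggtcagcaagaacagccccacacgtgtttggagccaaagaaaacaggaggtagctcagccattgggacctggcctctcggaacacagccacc
Col10a1 distal, chr10:34200087-34200287: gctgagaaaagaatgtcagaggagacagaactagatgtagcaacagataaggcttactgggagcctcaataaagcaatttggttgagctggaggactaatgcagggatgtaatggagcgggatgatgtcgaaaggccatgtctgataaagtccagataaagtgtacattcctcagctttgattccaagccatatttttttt

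Neither Col2a1 vehicle site held DR3, and in the whole vehicle list of undifferentiated cells 2.77% of 937 sites did. The first of them held TTGCNNAA. C/EBPβ was not listed there, but it was listed in both states at the adjacent locus, chr15:97744552-97745104. The 2 vehicle sites shown lay 3.38 and 4.32 kb from the Vdr start, and 74.9 and 74.0 kb from a Col2a1 start. The Matn3, Comp and Col10a1 sites held none of the motifs in these letters. RUNX2 sites around the 8 genes held TGTGGT in 3 of 10 cases in differentiated cells (interval 6.67% to 65.2%) and in 5 of 23 in undifferentiated cells (21.7%, interval 7.46% to 43.7%). The whole RUNX2 lists held it at 58.7% of differentiated and 54.4% of undifferentiated sites, and their flanks at 15.4% in differentiated and 15.6% in undifferentiated cells. The differentiated motif interval takes in the 58.7% of the whole list. In differentiated cells 5 of 10 RUNX2 sites lay in an H3K4me3 region (interval 18.7% to 81.3%, whole list 15.5%). In undifferentiated cells 14 of 23 did (interval 38.5% to 80.3%, whole list 26.7%). The 5 differentiated sites were nearest 1110006G14Rik, Tspyl4, Laptm4a or Ttc32. Of the 14, only those at -2.36 kb from Sox9 and at -0.093 kb from Col2a1 were nearest one of the 8 genes. Whether the motif share goes with the H3K4me3 share was not tested. C/EBPβ sites around the genes held TTGCNNAA in 12 of 31 cases in differentiated cells (38.7%, whole list 44.6%) and in 10 of 27 in undifferentiated cells (37.0%, whole list 42.5%).

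The lists differed in length, and their depth is unknown. The 12 factor lists held between 274 and 17950 sites of 201 bp each, and the 10 histone lists between 6983 and 53858 regions. A longer list may hold more regions for reasons of depth or enrichment, which was not tested. The windows also differed, because Sox5 has 12 annotated starts and a window of 606 kb and Sox6 has 5 starts and 414 kb, against 200 to 216 kb for the other genes. Among 8 genes of osteoblasts, H4K5ac lay at a start of 7 in each state (54.7% of all genes in differentiated and 55.6% in undifferentiated cells) and H3K4me3 at 5 in each state (43.3% in differentiated and 35.9% in undifferentiated cells), while Bglap had no mark at its start. Of 4 muscle and 4 blood genes none had H4K5ac or H3K4me3 at a start in either state, although Myf5 had H3K4me1 in differentiated cells.

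Most VDR sites around these genes were listed in undifferentiated cells with calcitriol, and so were most sites of the whole VDR lists, which held 871 in differentiated cells with calcitriol, 274 with vehicle, 7000 in undifferentiated cells with calcitriol and 937 with vehicle. There was 1 VDR site in differentiated cells with calcitriol and 14 in undifferentiated cells with calcitriol, a ratio of 0.0714 (interval 0.00169 to 0.469), while the whole lists stood at a ratio of 0.124. With vehicle there was no VDR site in differentiated cells and 3 in undifferentiated cells. In undifferentiated cells the ratio of calcitriol to vehicle sites was 4.67 (interval 1.30 to 25.3), beside 7.47 for the whole lists. The 3 vehicle sites were nearest Vdr or Senp1. For sites nearest a start of one of the 8 genes (7 against 0) and within 50 kb (6 against 0), no ratio could therefore be formed. In differentiated cells none could be formed either, with 1 site against 0.

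By gene, the VDR sites in undifferentiated cells with calcitriol numbered 2 at Sox9, 3 at Sox5, 1 at Sox6, 4 at Col2a1 and 4 at Matn3. They exceeded the vehicle sites at 5 of the 8 genes, against 32.9% of all genes, and fell short of them at 0 of 8 (1.33% of all genes). Only a gene with a calcitriol site can be counted as exceeding. Among all genes 9082 had such a site, and at 7301 of them calcitriol sites exceeded vehicle sites. In differentiated cells calcitriol sites exceeded vehicle sites at Sox5 alone (1 of 8, against 6.88% of all genes) and fell short at 0 of 8 (0.149%). At least 1 VDR site was listed for 1 of the 8 genes in differentiated cells with calcitriol (12.1% of all genes), for none with vehicle (6.15%), for 5 in undifferentiated cells with calcitriol (40.9%) and for 1 with vehicle (15.7%). Fewer VDR sites were listed in differentiated than in undifferentiated cells for Sox9, Sox5, Sox6, Col2a1 and Matn3, 5 of the 8 genes, against 36.1% of all genes. More were listed in differentiated cells for 0 of the 8 and for 0.320% of all genes. Acan, Col10a1 and Comp had no VDR site in any list. Of the 14 undifferentiated sites, 1 was called again in differentiated cells (7.14%, interval 0.181% to 33.9%), beside 11.3% of the whole list.

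RXR was listed more evenly between treatments. Differentiated cells had 7 RXR sites with calcitriol and 4 with vehicle, and undifferentiated cells had 16 with calcitriol and 16 with vehicle. The ratio of calcitriol to vehicle sites was 1.75 in differentiated cells (interval 0.445 to 8.15), beside 1.69 for the whole lists, and 1 in undifferentiated cells (interval 0.468 to 2.14), beside 0.969. Within 50 kb the ratio in differentiated cells was also 1, with 4 sites each. The ratio of differentiated to undifferentiated sites was 0.438 with calcitriol (interval 0.152 to 1.12), beside 1.07 for the whole lists and 0.885 around the 8 genes within 200 kb, and 0.250 with vehicle (interval 0.0608 to 0.775), beside 0.615. Of the 16 undifferentiated RXR sites with calcitriol, 5 were called again in differentiated cells (31.3%, interval 11.0% to 58.7%), beside 61.6% of the whole list. Among the 7 whose nearest protein-coding start belonged to one of the 8 genes, 0 were called again.

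Calcitriol RXR sites exceeded vehicle sites at Sox5 and Col2a1 in differentiated cells (2 of 8, against 26.9% of all genes) and fell short of them at 0 of 8 (4.18%). In undifferentiated cells they exceeded vehicle sites at Sox9 and Matn3 (2 of 8, against 15.0%) and fell short at Col2a1 and Comp (2 of 8, against 17.7%). RXR sites were listed for 3 of the 8 genes in differentiated cells with calcitriol (43.8% of all genes), for 2 with vehicle (33.6%), for 5 in undifferentiated cells with calcitriol (43.9%) and for 5 with vehicle (44.3%). The 3 genes were Sox5, Col2a1 and Matn3. Fewer RXR sites were listed in differentiated than in undifferentiated cells for 5 genes (17.8% of all genes) and more for Sox5 alone (17.8% of all genes). RXR accompanied VDR at 1 of 1 VDR sites in differentiated cells and at 10 of 14 in undifferentiated cells (71.4%, interval 41.9% to 91.6%), beside 66.0% of the whole list in differentiated and 60.0% in undifferentiated cells. The 3 Sox5 VDR sites in undifferentiated cells were among the 4 without RXR.

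C/EBPβ had the longest lists of any factor and the most sites around these genes, which made up 0.187% of its list in differentiated and 0.150% in undifferentiated cells. The VDR sites made up 0.115% of their calcitriol list in differentiated and 0.20% in undifferentiated cells, the RXR sites 0.0861% in differentiated and 0.211% in undifferentiated cells, and the RUNX2 sites 0.126% in differentiated and 0.191% in undifferentiated cells. C/EBPβ was listed at 31 sites in differentiated and 27 in undifferentiated cells, a ratio of 1.15 (interval 0.663 to 2.00), beside 0.922 for the whole lists. The ratio turned below 1 within 50 kb, at 0.867 (13 and 15 sites), and with the most upstream start of each gene alone, at 0.905 (19 and 21 sites). Sites were found for 5 of the 8 genes in differentiated cells (61.1% of all genes) and for 6 in undifferentiated cells (65.9%). Matn3, Sox5, Sox6 and Sox9 had more sites in differentiated than in undifferentiated cells (4 of 8, against 15.1% of all genes), and Col2a1 and Col10a1 had fewer (2 of 8, against 32.0%). Of the 27 undifferentiated sites, 17 were called again in differentiated cells (63.0%, interval 42.4% to 80.6%), beside 64.7% of the whole list.

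RUNX2 was listed at 10 sites in differentiated and 23 in undifferentiated cells, a ratio of 0.435 (interval 0.185 to 0.95), beside 0.659 for the whole lists. Of these, 2 differentiated and 6 undifferentiated sites had their nearest protein-coding start in one of the 8 genes, a ratio of 0.333. The rest were nearer to other genes. At least 1 site was listed for 5 of the 8 genes in differentiated cells (46.5% of all genes) and for 6 in undifferentiated cells (59.6%). Sites were fewer in differentiated cells for Sox9, Sox6, Col2a1, Comp and Matn3, 5 of 8 genes, against 42.1% of all genes. They were more in differentiated cells for 0 of 8, and for 8.73% of all genes. Sox5 and Acan had no RUNX2 site in either state. Of the 23 undifferentiated sites, 8 were called again (34.8%, interval 16.4% to 57.3%), beside 43.1% of the whole list.

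**Figure D1:**
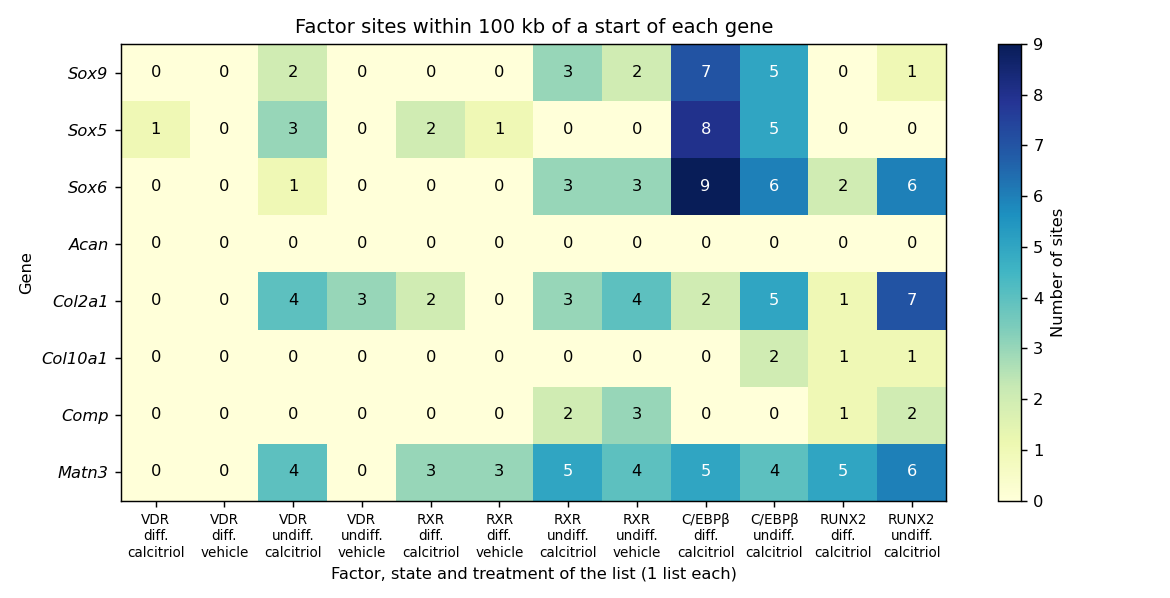
Number of sites of each transcription factor within 100 kb of a start of each gene (rows) in each of the 12 factor lists (columns), with 1 list per column and therefore no error bars. Acan is at 0 in every list, VDR in differentiated cells is listed at Sox5 alone, and C/EBPβ reaches 9 sites at Sox6 in differentiated cells.

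Overlapping sites of all lists merged into 66 loci, of which 37 had their nearest protein-coding start in one of the 8 genes and 29 in a neighbour. They comprised 6 loci in exons, 28 in introns and 32 between genes. In 44 loci 1 factor was listed, in 11 there were 2, in 6 there were 3 and in 5 there were 4. Factors were listed in differentiated cells alone at 13 loci, in undifferentiated cells alone at 26 and in both at 27. Distances below are from the nearest annotated start of the gene, negative when upstream.

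**Figure D2:**
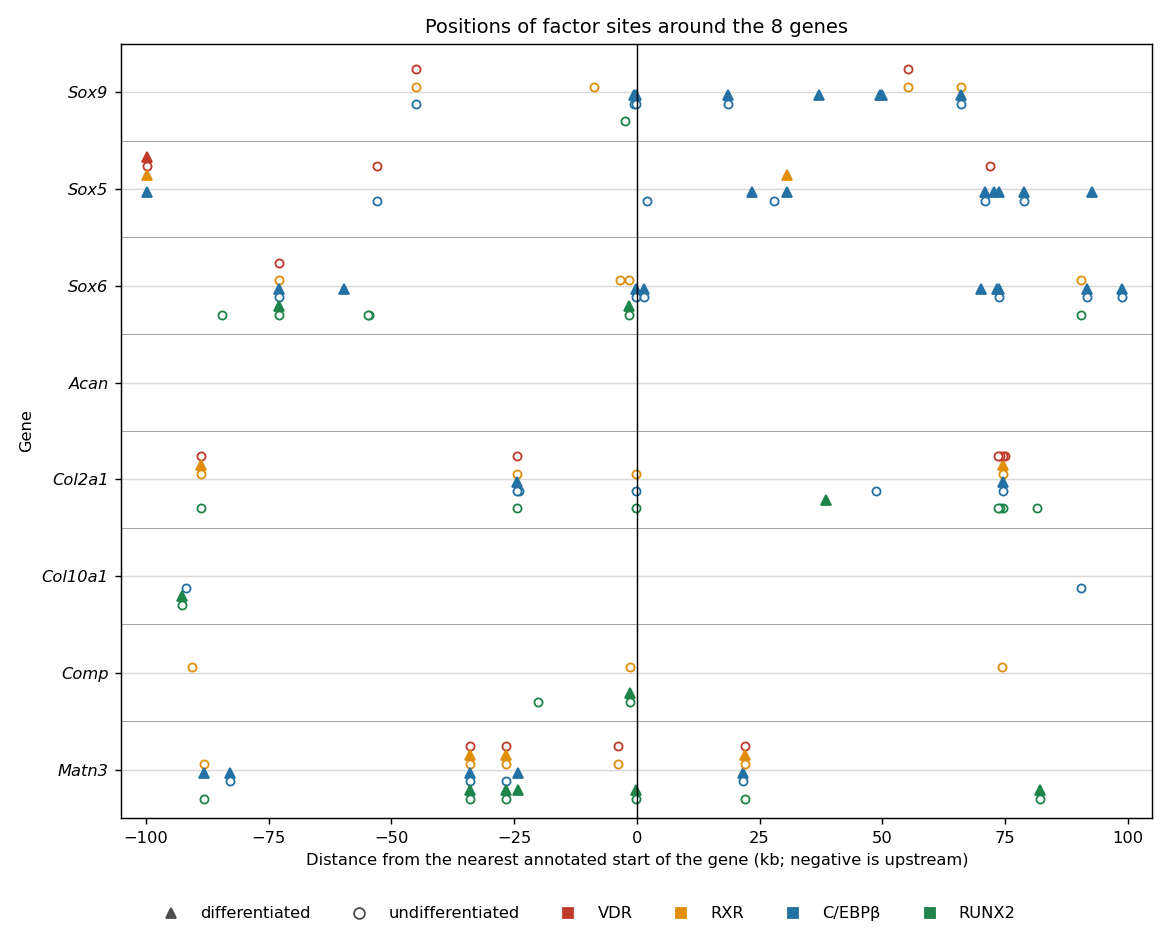
Positions of the factor loci, as distance in kb from the nearest annotated start of each gene, with filled triangles for differentiated cells, open circles for undifferentiated cells and 1 colour per factor, both treatments together. C/EBPβ symbols of both states lie at the Sox9 start and RUNX2 symbols of both states at the Matn3 start, the VDR triangle stands in the Sox5 row alone, and the Acan row is empty.

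Sox9 stands alone on chromosome 11, with no other protein-coding start within 100 kb, so its 11 loci had no nearer gene. VDR and RXR were listed together in undifferentiated cells with calcitriol at -45.0 kb, where C/EBPβ was listed too, and at 55.1 kb. These are the pair of exact DR3 sequences shown above. In differentiated cells VDR, RXR and RUNX2 were absent from all their lists around Sox9, and the 7 sites listed were all of C/EBPβ, against 5 C/EBPβ sites in undifferentiated cells. C/EBPβ was listed in both states at -0.544 and -0.088 kb, and RUNX2 at -2.36 kb in undifferentiated cells alone.

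The acetylated and H3K4me3 regions at the Sox9 start had scores near the top of their lists. H4K5ac, H3K9ac, H3K4me1 and H3K4me3 lay at both of its starts in both states. The authors' score of its H3K9ac region exceeded 99.5% of the scores in the differentiated list and 97.8% in the undifferentiated list, that of H4K5ac 97.9% in the differentiated and 97.4% in the undifferentiated list, and that of H3K4me3 98.7% in the differentiated and 97.8% in the undifferentiated list. The H3K4me3 region was 5.56 kb wide in differentiated and 16.6 kb wide in undifferentiated cells. A larger H3K4me3 cover in undifferentiated cells was not particular to Sox9. Within the 100 kb windows it was 7.05 against 14.7 kb at Sox6, 6.54 against 31.8 at Col2a1 and 6.67 against 14.6 at Col10a1. It was 7.42 against 14.3 kb at Comp and 5.56 against 26.6 at Matn3. Sox5 went the other way, with 1.54 against 0 kb, and Acan had 0 in both states. H3K36me3 covered 79.4% of the gene in differentiated and 81.6% in undifferentiated cells.

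The 250 bp upstream of Sox9 hold most of the closer C/EBPβ site, which runs on over the start, and are given on the plus strand with CpG dinucleotides in capitals, as are those of Acan, the gene without any factor site.
Sox9 promoter, chr11:112643288-112643537: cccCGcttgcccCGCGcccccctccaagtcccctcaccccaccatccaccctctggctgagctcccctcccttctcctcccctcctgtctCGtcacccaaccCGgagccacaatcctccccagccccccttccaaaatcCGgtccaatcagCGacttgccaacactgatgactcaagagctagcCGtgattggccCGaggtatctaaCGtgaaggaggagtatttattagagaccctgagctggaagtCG
Acan promoter, chr7:86198119-86198368: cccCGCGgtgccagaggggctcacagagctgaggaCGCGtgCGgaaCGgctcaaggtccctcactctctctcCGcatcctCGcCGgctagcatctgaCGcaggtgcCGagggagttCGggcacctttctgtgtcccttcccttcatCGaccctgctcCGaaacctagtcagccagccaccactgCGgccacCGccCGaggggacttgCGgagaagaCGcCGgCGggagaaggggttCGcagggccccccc

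The Sox9 stretch has 11 CpG dinucleotides and the Acan stretch 22, while the median over all genes was 8 (quartiles 3 and 18). The same stretch held 8 at Sox5, 9 at Sox6, 17 at Col2a1, 5 at Col10a1, 16 at Comp and 14 at Matn3. Acan, with the highest count of the 8, had no mark at its start in either state.

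Sox5 on chromosome 6 was the only gene with VDR in both states. The locus lies in an intron, at -99.7 kb from a downstream start and 735 kb inside the gene from its most upstream start. In differentiated cells VDR, RXR with calcitriol and C/EBPβ were all listed there, whereas in undifferentiated cells VDR was listed without the others. The locus lies just inside the 100 kb limit, with its VDR centre at 99.8 kb in differentiated cells. Just outside the limit, further RXR sites were listed in differentiated cells with calcitriol at 100.2 and 102 kb from a Sox5 start, and at Col2a1 a VDR site in undifferentiated cells at 101.3 kb. The other VDR sites of Sox5, at -53.0 and 72.0 kb, were in undifferentiated cells alone. RXR was listed at 2 sites in differentiated cells with calcitriol and 1 with vehicle, against 0 and 0 in undifferentiated cells.

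The most upstream Sox5 starts carried H3K4me3 and H4K5ac in differentiated cells and neither in undifferentiated cells, while H3K9ac and H3K4me1 were there in both. Such a difference in H3K4me3 was found at 8.57% of all genes, and in H4K5ac at 1.27%. The authors' scores placed the H3K4me3 region above 29.5% and the H4K5ac region above 37.2% of their lists. In undifferentiated cells the nearest H3K4me3 region to any Sox5 start was 291 kb away. H3K36me3 covered 0% of Sox5 in differentiated and 2.56% in undifferentiated cells.

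Sox6 on chromosome 7 had 15 loci, 8 of them nearest a Sox6 start. Its single VDR site was listed in undifferentiated cells with calcitriol and was nearest 1110004F10Rik. C/EBPβ was listed at -0.082 kb from the most downstream start in both states, and at 9 sites in differentiated against 6 in undifferentiated cells. RUNX2 was listed at 2 sites in differentiated and 6 in undifferentiated cells. Of the 6, 4 were nearest 1110004F10Rik, 1 was nearest 1110006G14Rik and 1 was nearest Sox6. Neither differentiated RUNX2 site was nearest Sox6. The H3K4me3 region at Sox6 lay within 1 kb of 1 of 5 starts in both states, and the start of 1110006G14Rik lies 0.932 kb from a Sox6 start, so it cannot be assigned to either gene. H3K36me3 covered 42.9% of Sox6 in differentiated and 77.3% in undifferentiated cells.

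Acan on chromosome 7 had no factor site in any of the 12 lists, as did 22.6% of all genes. No mark lay over any base of the gene in either state. The nearest region of any mark to its start was H3K4me1, 59.5 kb away in differentiated and 60.3 kb away in undifferentiated cells. H4K5ac was 61.6 kb away in differentiated and 61.3 kb in undifferentiated cells, and H3K4me3 156 kb in both.

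Col2a1 on chromosome 15 is a neighbour of Vdr, whose start lies 78.3 kb from the nearest Col2a1 start, and most of its VDR sites were closer to other genes. Of its 4 VDR sites in undifferentiated cells with calcitriol, 2 were nearest Vdr, 1 was nearest Senp1 and 1, at -24.4 kb, was nearest Col2a1. The 3 vehicle sites were nearest Vdr and Senp1. At -24.4 kb all 4 factors were listed in undifferentiated cells and C/EBPβ alone in differentiated cells. An intronic locus 2.74 kb inside the gene from its most upstream start held RXR with vehicle, C/EBPβ and RUNX2 in undifferentiated cells and no factor in differentiated cells. RUNX2 was listed at 1 site in differentiated and 7 in undifferentiated cells around Col2a1. Of the 7, 4 were nearest Vdr, 1 was nearest Senp1 and 2 were nearest Col2a1. The differentiated site was nearest Tmem106c.

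H3K4me3 was found at 0 of 10 Col2a1 starts in differentiated cells and at 6 of 10 in undifferentiated cells. A start marked in undifferentiated cells alone was seen at 1.18% of all genes. The undifferentiated region was 4.02 kb wide, and its authors' score exceeded 2.86% of the scores in its list, so it was among the lowest there. In differentiated cells the nearest H3K4me3 region was 23.9 kb away. H4K5ac and H3K4me1 lay at 10 of 10 starts in both states, and H3K36me3 covered 0% of the gene in differentiated and 18.8% in undifferentiated cells.

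Col10a1 on chromosome 10 lies inside Nt5dc1, a gene on the opposite strand. No VDR or RXR site was listed within 100 kb. Its 3 loci were at -92.5, -91.8 and 90.4 kb and nearest to Tspyl4 and Frk. No H4K5ac, H3K9ac, H3K4me1 or H3K4me3 region came closer to its start than 24.6 kb in differentiated or 24.8 kb in undifferentiated cells. H3K36me3 nonetheless covered 100% of it in both states, as part of a region that was 34.5 kb wide in differentiated and 34.7 kb in undifferentiated cells. Over Nt5dc1 itself the mark covered 45.2% in differentiated and 56.6% in undifferentiated cells, and the lists carry no strand by which the genes could be separated.

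Comp on chromosome 8 and Matn3 on chromosome 12 carried RUNX2 near their starts in both states, Comp at -1.48 kb and Matn3 at -0.104 kb. The Comp locus also held RXR in undifferentiated cells with both treatments, and neither VDR nor C/EBPβ was listed around Comp. Matn3 had no VDR site in differentiated cells and 4 in undifferentiated cells with calcitriol, at -34.0, -26.6, -3.76 and 22.1 kb. RXR accompanied all 4 of them in undifferentiated cells, and it remained at 3 of these loci in differentiated cells with either treatment. The locus at -3.76 kb, the one nearest to Matn3 itself, was not among them. The others were nearer to Laptm4a or Wdr35. Both genes had H4K5ac, H3K9ac and H3K4me1 at the start in both states and no H3K4me3, whose nearest region was 19.9 kb away in differentiated and 18.8 kb in undifferentiated cells at Comp, and 23.7 kb in differentiated and 12.2 kb in undifferentiated cells at Matn3.

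Across the 8 genes, starts carried acetylation more often than H3K4me3, as they did over all genes. H4K5ac lay at a start of 6 of 8 genes in differentiated (54.7% of all genes) and 5 of 8 in undifferentiated cells (55.6%). H3K9ac was at 6 of 8 in differentiated (52.6%) and 6 of 8 in undifferentiated cells (50.6%), and H3K4me1 at 6 of 8 in differentiated (58.8%) and 6 of 8 in undifferentiated cells (56.9%). H3K4me3 lay at Sox5, Sox6 and Sox9 in differentiated cells (3 of 8, against 43.3% of all genes) and at Col2a1, Sox6 and Sox9 in undifferentiated cells (3 of 8, against 35.9%). Without the lowest 25% of scores in each list, H3K4me3 was at 3 of 8 in differentiated and 2 of 8 in undifferentiated cells. Acan and Col10a1 had none of these marks at the start in either state, as did 38.5% of all genes.

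**Figure D3:**
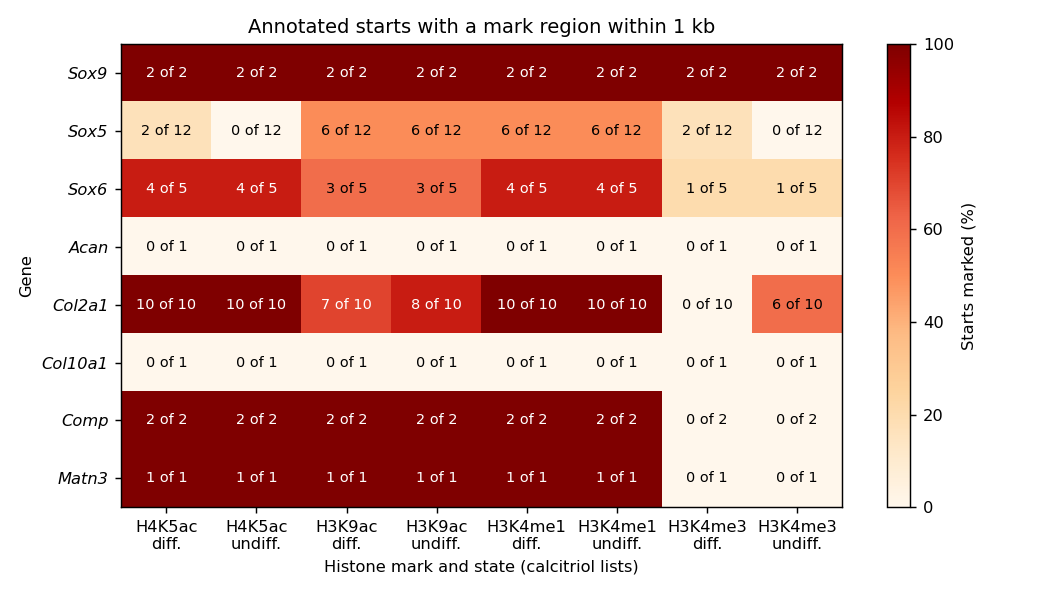
Share of annotated starts of each gene with a region of the mark within 1 kb, by mark and state in the calcitriol lists, printed as starts marked of all starts. H3K4me3 is at 0 of 10 Col2a1 starts in differentiated cells and 6 of 10 in undifferentiated cells, while at Sox5 it is at 2 of 12 in differentiated and 0 of 12 in undifferentiated cells.

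H3K36me3 covered at least 50% of the gene for Col10a1 and Sox9 in differentiated cells (2 of 8, against 39.3% of all genes) and for Col10a1, Sox9 and Sox6 in undifferentiated cells (3 of 8, against 41.4%). The median coverage over the 8 genes was 6.84% in differentiated and 10.7% in undifferentiated cells, while over all genes it was 0% in differentiated and 2.40% in undifferentiated cells. For the 8 osteoblast genes it was 90.4% in differentiated and 88.2% in undifferentiated cells, although Alpl, Ibsp and Bglap among them stood at 0% in both states. The coverage at Comp was 13.7% in differentiated and 0% in undifferentiated cells, and at Matn3 it was 0% in both.

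**Figure D4:**
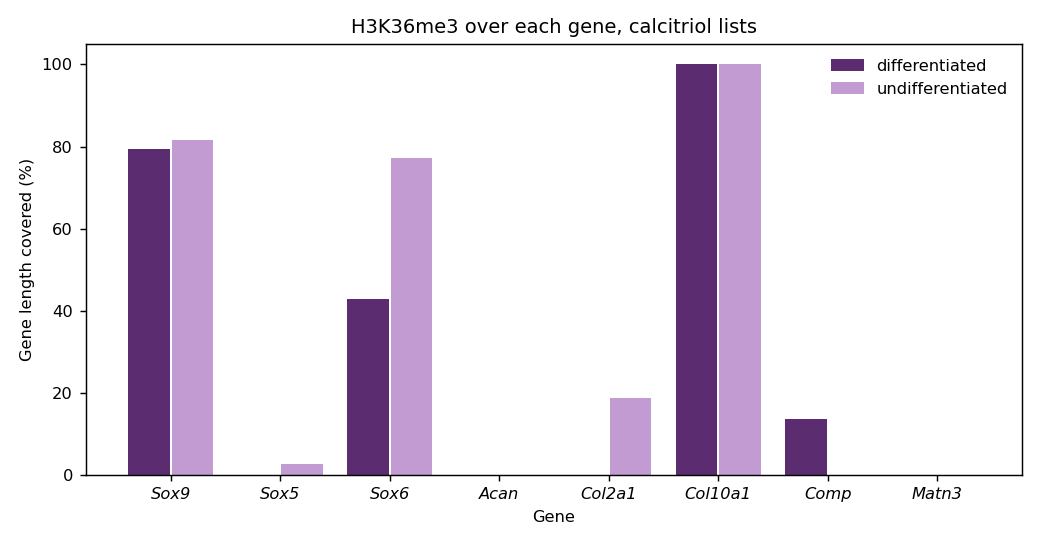
Percentage of each gene's length covered by H3K36me3 regions, as bars for differentiated (dark) and undifferentiated (light) cells, calcitriol lists, 1 list per state. Col10a1 reaches 100% and Sox9 79.4% or more in both states, and Sox6 stands at 42.9% in differentiated and 77.3% in undifferentiated cells.

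Sites that were not called again in differentiated cells mostly lay in chromatin that still carried marks there, around these genes as over the whole lists. Of the 13 such VDR sites, 12 lay in both H4K5ac and H3K4me1 regions of differentiated cells (92.3%, whole list 93.5%). The exception was the Sox9 site at 55.1 kb, where both marks were listed in undifferentiated cells alone. Of 11 such RXR sites 10 lay in both marks (90.9%, whole list 94.0%), and of 15 such RUNX2 sites 15 did (whole list 92.2%). For C/EBPβ it was 9 of 10 (90.0%, whole list 75.6%). In undifferentiated cells 14 of 14 VDR sites lay in H4K5ac and in H3K4me1, beside 97.6% and 96.3% of the whole list.

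The 24 other cartilage genes gave the following counts, from a list chosen with results of these data known. VDR was listed at 5 of 24 in differentiated and 13 of 24 in undifferentiated cells with calcitriol, against 12.1% of all genes in differentiated and 40.9% in undifferentiated cells. VDR sites were fewer in differentiated cells for 11 of 24 (36.1% of all genes) and more for 0 (0.320%). RXR sites were fewer for 4 (17.8%) and more for 2 (17.8%). C/EBPβ sites were fewer for 4 (32.0%) and more for 8 (15.1%), and RUNX2 sites were fewer for 7 (42.1%) and more for 6 (8.73%). H3K4me3 lay at a start of 6 of 24 in differentiated (43.3%) and 3 of 24 in undifferentiated cells (35.9%). The median number of C/EBPβ sites was 3.5 for the 8 genes, 1.5 for the other cartilage genes and 8 for the osteoblast genes in differentiated cells, and 4.5, 2 and 7 in undifferentiated cells. Because the windows differed in length, medians per Mb were also taken. In differentiated cells they were 11.2, 6.47 and 33.4, beside 10.0 for the blood genes, 0 for the muscle genes and 5.00 for all genes. In undifferentiated cells they were 12.2, 8.39 and 30.7, beside 12.5, 0 and 5.00.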

How the data were processed

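The authors used Bowtie, HOMER and build mm9, per the submitters' processing notes. Tool versions, thresholds and the step each tool served were not given in the sources used here. Replicates were made and examined separately, per the series' design text, and the region names count 2 merged peaks for 70.4% to 99.6% of each deposited list, which was therefore taken for an overlap of replicates. The deposited score was 0 in all factor lists. In the histone lists what the score measures is not given, and it was used only to rank regions within a list. Read depth is unknown.

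Lists were placed on GENCODE vM1 (NCBIM37) with Python 3.11.15, numpy 2.4.6, scipy 1.17.1, pysam 0.24.0 and matplotlib 3.10.9; 96 regions on other chromosomes were left out. Sites overlapping by at least 1 bp were shared, and a mark within 1 kb was at a start. Motifs were searched in 200 bp. Shares have exact Clopper-Pearson 95% intervals, and ratios the interval of the same counts; no test was possible with 1 list a group. All 8 genes were named. Sites were named where VDR was listed with calcitriol, together with others near starts that were singled out after their values were seen. Of the VDR sites due for printing, 1 overlapping an exon was left out, and a Sox6 site is not reported here. The members and lists were chosen with earlier results of these data known. The scripts were tested on simulated data. Alternatives covered the window, the starts used, the nearest gene, the overlap, the motif setting and low scores.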

Additional observations from a re-analysis of the deposited data

Results flagged for a closer look

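The RXR counts around Col2a1 differed between treatments unlike in the 2 states, although in undifferentiated cells by a single site. For the whole RXR lists the ratio of calcitriol to vehicle was 1.69 in differentiated and 0.969, close to even, in undifferentiated cells. In differentiated cells 2 sites were listed with calcitriol and 0 with vehicle, and in undifferentiated cells 3 were listed with calcitriol and 4 with vehicle. The difference between the states' changes was 3 sites, and it was not tested, because each count comes from 1 list. Both differentiated sites were nearest to other genes, 1 to Vdr and 1 to Senp1.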

How the results depend on the processing

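In all, 27 results were recomputed, which gave 108 alternative values, and 95 of them stayed within the interval of the value given or within 1.5 times its count. With so few sites these intervals are wide, so staying within them is a weak criterion. The RXR interval of 0.152 to 1.12, for example, takes in both 0.438 and 0.885. The ratio of differentiated to undifferentiated C/EBPβ sites was 1.15 and turned below 1 with a window of 50 kb (0.867) and with the most upstream start alone (0.905). With 50 kb the RXR ratio of calcitriol to vehicle was 1 in differentiated and 0.889 in undifferentiated cells, beside 1.75 and 1, and the RUNX2 ratio of differentiated to undifferentiated sites was 0.7, beside 0.435. With 200 kb the RXR ratio of differentiated to undifferentiated sites with calcitriol was 0.885, beside 0.438, and that of VDR 0.167, beside 0.0714. For sites nearest a member's start, the ratios of differentiated to undifferentiated sites with calcitriol were 0.286 for RXR and 0.143 for VDR. For RUNX2 the ratio was then 0.333 and for C/EBPβ 1.28. With vehicle the RXR ratio was 0.444 at 50 kb and 0.385 at 200 kb, beside 0.250. The undifferentiated RXR ratio of calcitriol to vehicle, 1 as given, was 0.938 with the most upstream start alone and 1.4 for sites nearest a member's start. With a window of 50 kb, the ratio of differentiated to undifferentiated VDR sites was 0 and the share of VDR sites called again 0%, since the Sox5 locus fell outside, RXR accompanied 100% of 6 VDR sites in undifferentiated cells, and DR3 was found at 0 VDR sites in differentiated and 1 in undifferentiated cells. With the most upstream start of each gene alone, the VDR ratio was 0, the share called again 0% and DR3 was found at 0 differentiated sites. With 200 kb, DR3 was found at 2 differentiated and 6 undifferentiated sites. With no mismatch it was found at 0 differentiated sites, and in 100 bp at 1 undifferentiated site. Counting only sites nearest a member's start, 0% of RXR sites were called again. No ratio was formed where the second list had no site, as for calcitriol over vehicle of VDR in differentiated cells. The same held for VDR in undifferentiated cells with 50 kb (6 against 0) and for sites nearest a member's start (7 against 0). No paired analysis was possible because each group has 1 list. Read depth is unknown, so an absent region shows only that none was listed.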
